A study of Mus musculus with 6 samples.

Results

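The genes described here are grouped under RNA processing: Zcchc7, Exosc3, Ncbp1, Rngtt, Tgs1, Ints8, Pnisr, Nfx1 and Rps20. Most of them act on RNA between its synthesis and its use in translation. They are 9 of the 53546 gene features in the deposited counts. They were chosen by name, with their values in these libraries already seen, so their levels and calls are given as descriptions. The counts come from RNA sequencing of 6 mouse libraries of strain C57BL/6, 3 controls without a stated treatment and 3 from animals with spinal cord injury. The labels name both spinal cord and intervertebral disc as the tissue and give no age, sex or time after injury. Separate animals are not stated for the libraries, so the spread between them may be technical. Total counts were 2385703 to 3921627 per library, and values are in CPM, counts per 1000000 counts of the library. Where 3 values follow each other, they are those of libraries 1, 2 and 3 of the group.

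Most of these genes have a step of their own in RNA metabolism. A new messenger RNA receives a cap from Rngtt, the capping enzyme, and that cap is bound in the nucleus by a complex whose large subunit is Ncbp1. Tgs1 adds further methyl groups to the caps of small nuclear and nucleolar RNAs, and Ints8 is a subunit of the Integrator complex, which cuts the ends of small nuclear RNAs. Exosc3 is a cap subunit of the RNA exosome, which trims and degrades RNA from its 3′ end, and Zcchc7 is a zinc-knuckle protein of the complex that hands nuclear RNA to the exosome. In humans, mutations of the gene for Exosc3 cause pontocerebellar hypoplasia with loss of spinal motor neurons. Pnisr is a serine and arginine rich protein linked to splicing, Nfx1 a zinc finger protein that binds promoters of class II histocompatibility genes, and Rps20 a protein of the small ribosomal subunit.

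In these files a name need not stand for counts on that gene, but for these 9 it does. All lie on chromosome 4, where the exons given in the files overlapped the exons of the same gene in GENCODE M21 (mouse build GRCm38) by 100% for every member. Only 1740 of the 53546 features (3.25%) reached 90% and are called name-stable here. Zcchc7 (ENSMUSG00000035649.17) lies on the plus strand at chr4:44755877-44932215, Exosc3 (ENSMUSG00000028322.11) on the minus strand at chr4:45316613-45342732 and Ncbp1 (ENSMUSG00000028330.8) on the plus strand at chr4:46138613-46172403. Pnisr (ENSMUSG00000028248.15, plus strand) spans chr4:21847583-21876475, Rngtt (plus) chr4:33310311-33502614 and Nfx1 (plus) chr4:40970906-41025993. Tgs1 (plus) spans chr4:3574875-3616619, Rps20 (minus) chr4:3831334-3835665 and Ints8 (minus) chr4:11199158-11254258. The counting ignored strand and left out fragments on overlapping genes. Exons of other features cover 8.15% of the exonic bases of Ints8 (Ccne2, opposite strand), 4.70% of Ncbp1 (Tstd2 and Xpa), 4.0% of Exosc3 (Dcaf10), 1.67% of Rps20 (a small nucleolar RNA inside it) and none of the other five.

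RefSeq windows from 250 bases before to 50 bases after the transcription start (build GRCm38.p6) were on hand for 5 of the members. The 150 bases before the start are shown for 4 of them. Zcchc7 differed between control 3 and the injury libraries by the test given further on, Exosc3 is its partner in the exosome pathway, and Ncbp1 and Rngtt had the most similar pair of profiles. Capitals mark matches on either strand to CCGGAAG, a core bound by ETS factors, and TGCGCA, the core of the NRF1 motif. The 2 do not overlap. They lie at chr4:44756409-44756558 (plus), chr4:45320617-45320766 (minus), chr4:46138361-46138510 (plus) and chr4:33310161-33310310 (plus), in the order shown.
Zcchc7: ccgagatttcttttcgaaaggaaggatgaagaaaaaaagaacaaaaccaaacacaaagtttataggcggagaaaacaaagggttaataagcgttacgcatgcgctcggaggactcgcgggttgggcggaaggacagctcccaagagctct
Exosc3: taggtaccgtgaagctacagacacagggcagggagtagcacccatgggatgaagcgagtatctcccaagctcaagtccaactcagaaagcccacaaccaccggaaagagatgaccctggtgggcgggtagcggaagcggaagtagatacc
Ncbp1: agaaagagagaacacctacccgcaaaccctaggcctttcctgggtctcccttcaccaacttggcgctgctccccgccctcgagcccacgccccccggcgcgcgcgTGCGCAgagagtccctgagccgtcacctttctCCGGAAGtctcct
Rngtt: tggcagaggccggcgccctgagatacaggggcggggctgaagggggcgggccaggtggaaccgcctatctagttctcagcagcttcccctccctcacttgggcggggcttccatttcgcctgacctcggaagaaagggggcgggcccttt

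The sequence of Ncbp1 held a match to each motif in the 150 bases shown. Over the full window of 300 bases, Zcchc7 and Exosc3 held 1 match each to CCGGAAG outside the stretch shown, and Rngtt held none of either. Of 32851 RefSeq windows of that length, 8.86% held CCGGAAG and 7.76% held TGCGCA. CpG dinucleotides numbered 18, 12, 28 and 19 in the windows of Zcchc7, Exosc3, Ncbp1 and Rngtt, against a median of 7 over all windows. GC content was 46% for Zcchc7 and 65.7% for Ncbp1, with a median of 52.7% over all windows. These matches describe the letters only.

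Controls 1 and 2 stood apart from the other 4 libraries in their marker genes. Of 15 genes of neurons and glia, 12 are name-stable. Their summed level was 25.9, 88.0 and 6842 CPM among the controls and 6948 to 7418 CPM in the injury libraries. Not a count fell on Pou3f2, a neural transcription factor, in controls 1 and 2. The 7 name-stable genes of kidney and other epithelia summed to 2854, 1838 and 9.56 CPM among the controls and to 9.13 to 12.2 CPM in the injury libraries, with Slc7a13, Aqp3 and Acnat2 at 0 in control 3 and all injury libraries. The 4 name-stable leukocyte genes of 6 listed summed to 207, 427 and 57.4 CPM (control) and to between 57.0 and 120 CPM (injury). None of 6 cartilage and disc genes is name-stable, so the disc label could not be checked by name. Fewer cells of a type and less RNA per cell cannot be told apart in such bulk libraries. Each result below is therefore given library by library, and the injury libraries are set against control 3 as well as against all 3 controls.

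Zcchc7 and Pnisr had higher CPM in every control than in any injury library. The same held on library sizes scaled by TMM or RLE, the factors of edgeR and DESeq2, and on totals without the 10 most abundant features, as did the opposite order of Rps20. Control values of Zcchc7 were 289, 433 and 351 CPM, and injury values 212, 218 and 165 CPM. All 3 controls were above all 3 injury libraries, with a mean of 358 ± 72.4 CPM for the controls and of 198 ± 29.2 CPM for the injury libraries (SD, n = 3 each). Pnisr stood at 592, 1165 and 701 CPM among the controls, and at 531, 487 and 362 CPM among the injury libraries. The groups did not overlap either, though control 1 and injury 1 were close, and the means were 819 ± 304 CPM (control) and 460 ± 87.5 CPM (injury). On library totals control 2 was the highest library and injury 3 the lowest in both genes. For Zcchc7 control 2 was below control 3 with TMM (337 against 346 CPM) and with RLE (312 against 331 CPM).

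**Figure D1:**
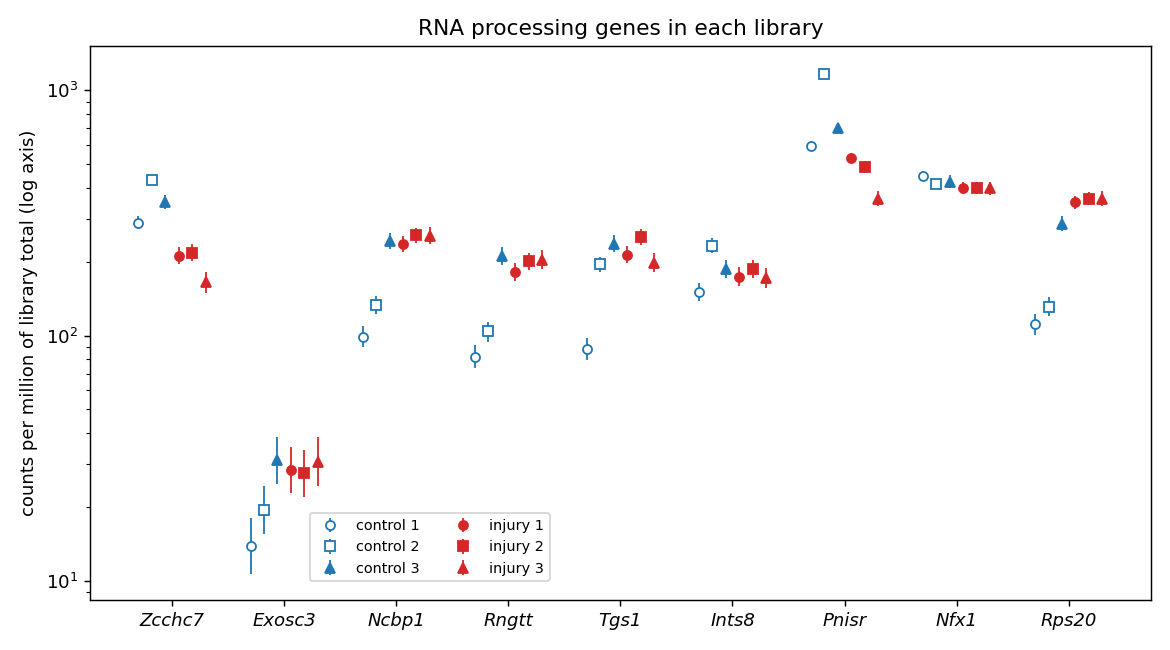
CPM on the library total (log axis) for each of the 9 genes in controls 1, 2 and 3 (blue) and injury 1, 2 and 3 (red). Points are libraries and bars are 95% Wilson intervals for counting error only. Zcchc7 runs from 165 CPM in injury 3 to 433 CPM in control 2, while Nfx1 stays between 399 and 448 CPM in all 6.

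Control 3, the control that shared its marker levels with the injury libraries, kept this order. Its Zcchc7 level was 1.65, 1.61 and 2.13 times that of injury 1, 2 and 3, with 95% exact counting intervals of 1.49 to 1.83, 1.45 to 1.79 and 1.89 to 2.40. For Pnisr the ratios were 1.32 (1.23 to 1.41), 1.44 (1.34 to 1.54) and 1.94 (1.78 to 2.10). Both differences were larger than counting error in each of the 3 pairs and largest against injury 3. Such intervals compare libraries, not conditions, and leave out the spread between libraries.

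Rps20 showed the opposite order. Its control values were 111, 131 and 286 CPM and its injury values 350, 362 and 362 CPM, so every injury library was above every control. The control mean was 176 ± 95.5 CPM and the injury mean 358 ± 7.08 CPM (SD, n = 3 each). The level in control 3 was 0.817, 0.789 and 0.790 times that in injury 1, 2 and 3, with the highest upper bound of the counting intervals at 0.899. The feature named Rps20 covers 4080 bases in 2 exon blocks of a gene that spans little more, so it counts intronic fragments too. Ribosomal protein genes have many processed copies, and fragments that map to several places were not counted, so the level of Rps20 is uncertain.

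**Figure D2:**
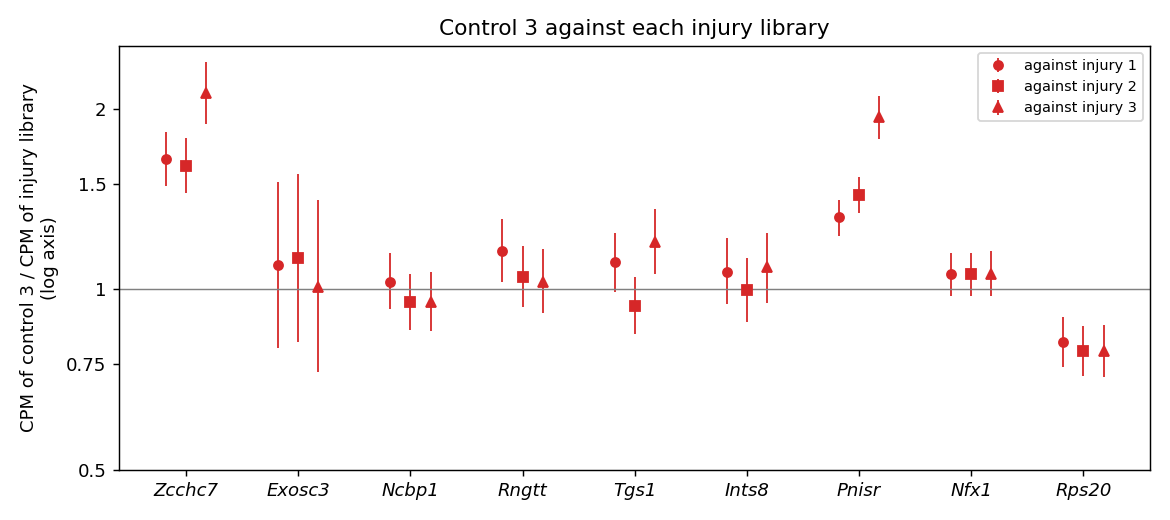
CPM of control 3 divided by CPM of each injury library (log axis) for the 9 genes, with 95% exact counting intervals. Zcchc7 and Pnisr lie above 1 and Rps20 below 1 against all 3 injury libraries, and of 27 intervals 11 leave out 1. These intervals cover counting error only, and the share over all features was not computed.

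The ratio of 2 genes within a library does not depend on how the library is scaled. Counts of Zcchc7 were 2.59, 3.31 and 1.23 times those of Rps20 in the controls, and 0.607, 0.601 and 0.455 times in the injury libraries. Counts of Pnisr were 5.31, 8.90 and 2.45 times those of Rps20 in the controls and 1.52, 1.35 and 1.00 times after injury. Neither ratio overlapped between the groups, and control 3 lay between the other controls and the injury libraries in both. The lack of overlap was fixed in advance by the opposite orders of Rps20 and the other genes, so it adds no support. By contrast, Pnisr to Zcchc7 was 2.05, 2.69 and 2.0 in the controls and 2.5, 2.24 and 2.2 after injury, which overlap. These ratios were formed after the values had been seen and carry no test.

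**Figure D3:**
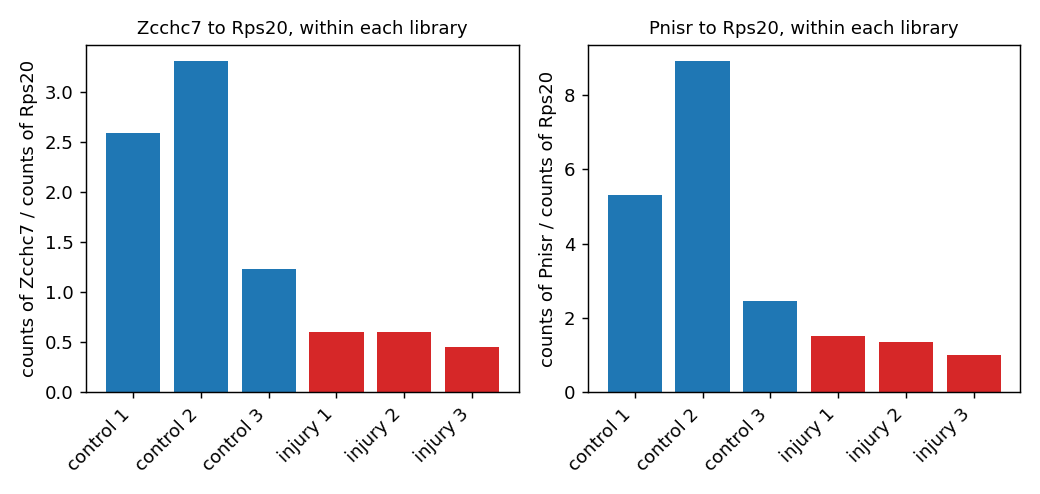
Counts of Zcchc7 (left) and of Pnisr (right) divided by counts of Rps20 in the same library, for controls (blue) and injury libraries (red). Control 3 has 1.23 for Zcchc7, above the 0.455 to 0.607 of the injury libraries and below the 2.59 and 3.31 of the other controls.

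On library totals, the capping and cap-binding genes and Exosc3 separated controls 1 and 2, not the labelled groups. For Ncbp1 the control libraries held 99.1, 133 and 244 CPM, and the injury libraries 236, 256 and 255 CPM. For Rngtt they held 81.9, 104 and 211 CPM, and 182, 201 and 204 CPM. Controls 1 and 2 were the lowest libraries for both, and control 3 was at the level of the injury libraries. Ncbp1 and Rngtt kept nearly 1 ratio of counts, 1.15 to 1.30 in the 6 libraries. Exosc3 was the member with the fewest counts, 54 to 82 per library, and its values were 13.9, 19.4 and 31.0 CPM for control and 28.2, 27.4 and 30.6 CPM for injury. With RLE scaling control 3 fell below the lowest injury library for Ncbp1 (230 against 246) and Exosc3 (29.2 against 29.4), so their groups did not overlap there. Tgs1 was lowest in control 1 alone, with 88.3 CPM there, then 196 and 237 CPM for the other controls, and 214, 253 and 198 CPM for the injury libraries.

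Against control 3, these 4 genes differed little. The log2 fold change of injury against control 3 was 0.15 (SE 0.17) for Ncbp1, 0.01 (SE 0.17) for Rngtt, 0.02 (SE 0.17) for Tgs1 and 0.01 (SE 0.24) for Exosc3 in edgeR's quasi-likelihood fit. These signs are not stable, since under total count scaling those of Rngtt, Tgs1 and Exosc3 were -0.11, -0.10 and -0.11. So Zcchc7 and Exosc3, which act in 1 pathway, had unlike values: the level of Exosc3 in control 3 was 1.01 to 1.13 times that of the injury libraries, with counting intervals from 0.729 to 1.56. The difference between the 2 genes was not tested.

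Nfx1 and Ints8 varied least. The controls held 448, 416 and 424 CPM of Nfx1, and the injury libraries 401, 400 and 399 CPM. Its groups did not overlap, but the means were only 1.07-fold apart, and with TMM or RLE scaling control 2 was the lowest library and the groups overlapped. The level in control 3 was 1.06 times that in each injury library, within the counting intervals of 0.973 to 1.16. The 3 injury libraries lay closer together than their counting intervals, which ran from 374 to 425 CPM. The controls held 151, 233 and 187 CPM of Ints8, and the injury libraries 174, 187 and 172 CPM, with all injury libraries inside the range of the controls. This too depends on scaling. With RLE every injury library was above every control for Ints8, and without the 10 most abundant features every control was above every injury library.

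Levels are compared between genes per kilobase of exonic length. After injury Rps20 stood highest at 87.7 ± 1.74 CPM per kilobase, followed by Ncbp1 at 73.5 ± 3.36 (SD, n = 3). Nfx1 at 46.7 ± 0.13, Pnisr at 45.2 ± 8.59 and Tgs1 at 41.7 ± 5.31 did not separate beyond their spread. Rngtt at 27.6 ± 1.71 and Ints8 at 23.8 ± 1.08 came next, and Exosc3 at 21.7 ± 1.26 and Zcchc7 at 20.6 ± 3.03 overlapped. In control 3 the order differed: Zcchc7 stood at 36.5 CPM per kilobase, above Rngtt (29.8), Ints8 (25) and Exosc3 (23.4), and Pnisr at 68.8 was close to Rps20 at 70.0.

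With all 6 libraries, none of the 9 members passed in edgeR's quasi-likelihood test at 0.05, adjusted by Benjamini-Hochberg over 12646 features, and the background was 0.0% of features called. Of those features, 3241 had an unadjusted p under 0.05, limma-voom also called 0 and DESeq2 called 1503, none of them a member. The log2 fold change was -0.70 (SE 0.32) for Zcchc7, -0.66 (SE 0.40) for Pnisr and 1.14 (SE 0.48) for Rps20, with adjusted p of 0.228, 0.313 and 0.199. The median over the members was 0.52, against -0.07 over all tested features and 0.59 over the name-stable ones. By ranges, the groups did not overlap for 4 of 9 members (44.4%), where 39.2% of tested features and 33.4% of name-stable ones did so. With TMM scaling the groups did not overlap for 3 members, with RLE for 6 and without the 10 most abundant features for 5. The share of 44.4% is near the background and says nothing particular about these genes.

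Without control 3, 5 of 9 members passed, where the background was 66.8% of features called in either direction, 30.2% called higher, and 72.2% of name-stable features called, 53.1% higher. All 5 were higher in the injury libraries than in controls 1 and 2: Rps20 (log2 fold change 2.05, SE 0.25), Ncbp1 (1.60, SE 0.23), Rngtt (1.57, SE 0.24), Exosc3 (1.30, SE 0.27) and Tgs1 (1.21, SE 0.28), with edgeR adjusted p from 0.00083 to 0.00825. These values move with the marker genes of nervous tissue and epithelia above, and the part of tissue makeup in them was not tested. Zcchc7 (-0.35, SE 0.23) and Pnisr (-0.38, SE 0.27) did not pass in this fit, nor did Nfx1 (0.34, SE 0.28) and Ints8 (0.41, SE 0.21).

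With control 3 as the only control, 1 of 9 members passed, and the background was 6.78% of 13857 features called, 1.05% higher and 5.72% lower. That split depends on the tool, since DESeq2 called 158 features higher and 9 lower. Zcchc7 was lower after injury by this call, with a log2 fold change of -0.70 (SE 0.16, edgeR adjusted p 0.0122). Of the 476 name-stable features tested, 2.10% were called. Pnisr had -0.49 (SE 0.17, adjusted p 0.0793) and Rps20 0.45 (SE 0.16, adjusted p 0.0968), and did not pass. This fit takes the spread from the injury libraries and assumes it for control 3 too. The call of Zcchc7 rests in part on injury 3: without that library its log2 fold change was -0.55 (SE 0.19) with an edgeR adjusted p of 0.0617, and the background was 6.58%. Pnisr passed at an edgeR adjusted p of 0.0350 with total count scaling, where 6.71% of features and 2.31% of name-stable ones were called. Without injury 1 Pnisr passed at 0.00709 and Rps20 at 0.0120, where 14.8% of features and 19.1% of name-stable ones were called. Control 3 lay outside the range of the injury libraries for 6 of 9 members (66.7%), where 67.7% of tested features and 56.7% of name-stable ones did so.

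The share of counts on features off the GENCODE M21 exons and the share on the feature named Ltbp3 had the group order of Zcchc7 and Pnisr. Features that share no base with any GENCODE M21 exon held 7.57%, 11.7% and 4.21% of the counts of the controls and 2.34%, 2.0% and 1.85% of those of the injury libraries. They number 33826 of the 53546 features. Coordinates were not converted and the build of the counts is not given, so these counts need not lie outside exons. The feature named Ltbp3, which has 3020 of its 9069 bases on exons of Malat1, a nuclear long noncoding RNA, held 21.8%, 17.2% and 2.56% of counts in the controls and 1.56%, 1.38% and 1.11% after injury. Its counts were not split between the Malat1 part and the rest. All 3 controls were above all 3 injury libraries in both measures, and injury 3 was the lowest library, as for Zcchc7 and Pnisr. Among the controls, the off-exon share was highest in control 2, the Ltbp3 share was highest in control 1, and both were lowest in control 3. On library totals both genes were highest in control 2 and lowest in control 1. That order depends on scaling: with RLE Pnisr stood at 675 CPM in control 1 and 661 CPM in control 3. Groups that do not overlap, in either direction, were found for 39.2% of tested features. The part of these measures in the levels of Zcchc7 and Pnisr was not tested.

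The name-stable genes with profiles most like those of Zcchc7 and Pnisr were the same 3 for both, counting each other. Likeness was the root mean square distance between log2(CPM + 1) values over the 6 libraries, each gene less its own mean, among 413 other name-stable genes of at least 10 mean CPM. Zcchc7 and Pnisr were each other's nearest, at 0.151. Next came 6530409C15Rik on chromosome 6, at 0.157 from Zcchc7 and 0.193 from Pnisr, at 12.1, 21.4 and 15.7 CPM (control) and 7.92, 7.02 and 5.87 CPM (injury). Eif2s3y, a Y-linked gene for a translation initiation factor subunit, followed at 0.193 and 0.209, at 230, 342 and 209 CPM (control) and 159, 188 and 150 CPM (injury). Among the members, Ncbp1 and Rngtt were closest, at 0.0577, and Pnisr and Rps20 farthest apart, at 1.12.

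Other genes of RNA metabolism were read from 7 lists of 136 genes, of which the 9 members and 20 others are name-stable. No other gene of cap formation, of the nuclear exosome, of Integrator or of the small ribosomal subunit is name-stable, so the members stand alone for those complexes. With all 6 libraries, 0 of the 20 passed in edgeR's test. Against control 3, the median log2 fold change of the 20 was 0.20, beside -0.03 over all tested features and 0.18 over the name-stable ones. The highest of the 20 was Nol6, a factor of ribosomal RNA processing, at 139, 107 and 353 CPM (control) and 496, 473 and 486 CPM (injury). Its log2 fold change against control 3 was 0.58 (SE 0.16).

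The 5 other splicing genes had a median log2 fold change of 0.17 against control 3. Smu1, a spliceosome protein, stood at 344 CPM in control 3 and at 306, 357 and 319 CPM in the injury libraries. Snrpd1, a core protein of small nuclear ribonucleoproteins, stood at 131 CPM and at 127, 148 and 132 CPM. Both had less in controls 1 and 2, at 136 and 117 CPM and at 54.2 and 60.9 CPM. Esrp1, an epithelial splicing regulator, went the other way, with control values of 86.7, 112 and 3.06 CPM and injury values of 3.16 to 5.03 CPM. Thoc1, a subunit of the complex that couples transcription to export, stood at 210, 185 and 201 CPM (control) and 135, 162 and 124 CPM (injury), so its groups did not overlap, as for Zcchc7 and Pnisr. Its log2 fold change against control 3 was -0.39 (SE 0.17). Of the 20 genes, 2 had every control above every injury library and 5 had the reverse. The groups did not overlap, in either direction, for 39.2% of tested features and 33.4% of name-stable ones. Without control 3, 10 of the 20 were higher and 1 lower. There 30.2% of all features and 53.1% of name-stable ones were called higher. In either direction 66.8% and 72.2% were called.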

How the data were processed

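Per the labels' protocols, Trizol was used for extraction and an Illumina TruSeq kit for the libraries. The deposited counts per gene name were made by the authors with featureCounts 2.0.1 from pairs whose ends both mapped, summed over exons, without strand, multi-mapping or overlapping fragments, per the file headers. The submitters' processing notes name Bowtie 0.12.2, mm8 and mm9. The aligner and build of these counts are not given in the sources used here. The deposited FPKM columns divide the same counts by feature length and by a constant that equals, within 0.001%, the squared library total over 1000000. They thus divide by library size a second time and were used for no comparison.

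Groups follow the sample group label and replicate numbers the titles. Feature exons were set against GENCODE M21 without converting coordinates. The main fits used edgeR 4.0.16 (R 4.3.3) with TMM scaling, default filterByExpr, the quasi-likelihood F test and Benjamini-Hochberg adjustment over all tested features, with calls at 0.05: injury against control over 6 libraries, and injury against control 3. Standard errors come from the F statistic. Alternatives used limma 3.58.1 (voom), DESeq2 1.42.0, other scalings, no filter, a replicate block and leaving out libraries. The pipeline was tested on simulated data. Genes named are the 9 members, name-stable genes of the lists and markers, and for Zcchc7 and Pnisr the 3 genes of nearest profile. Members and lists were chosen with earlier results of these data known. Wilson (CPM) and exact (ratio) intervals cover counting error only, since fragments carry no molecular identifiers.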

Additional observations from a re-analysis of the deposited data

How the results depend on the processing

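Over all 6 libraries edgeR called 0 features in every setting tried except without control 3, and the counts with 1 library left out ran from 0 to 10231. DESeq2 called 1503. Against control 3 the count of 939 was 167 with DESeq2 and 757 to 1995 with an injury library left out, the highest without injury 1. Zcchc7 and Pnisr kept a negative and Rps20 a positive log2 fold change in all 14 settings over 6 libraries and all 10 against control 3. Against control 3 Zcchc7 ran from -0.86 to -0.55, Pnisr from -0.64 to -0.31 and Rps20 from 0.29 to 0.57, the last with no count filter.

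Over 6 libraries Exosc3, Tgs1, Ncbp1 and Rngtt also stayed positive in every setting, with lowest values of 0.31, 0.24, 0.54 and 0.45. The signs of Nfx1 and Ints8 there, and those of the remaining members against control 3, were not stable. Total scalings, which moved the median of all features from -0.03 to between -0.18 and -0.15 against control 3, turned most of these. Over 6 libraries total count scaling gave -0.10 for Nfx1 and -0.10 for Ints8, and without the 10 most abundant features -0.26 and -0.24. Leaving out 1 library gave Nfx1 -0.15 to 0.34. Against control 3 total count scaling gave Exosc3 -0.11, Tgs1 -0.10, Rngtt -0.11, Nfx1 -0.08 and Ints8 -0.07. Without the 10 most abundant features these were -0.14, -0.13, -0.14, -0.12 and -0.11, and Ncbp1 was 0.00. Leaving out an injury library gave Tgs1 -0.02 to 0.14. The cause was not tested. The labels do not say whether replicate numbers pair the libraries. In their deviations from group means, same-numbered pairs correlated at 0.0653, -0.138 and 0.0594. These values cannot decide it, because the controls differ so much among themselves. With the replicate block 0 features were called over 6 libraries, and no paired analysis was possible against control 3, because a lone control shares only 1 number. The scalings of single CPM values were added after seeing the data. A fit scaled by the constants in the deposited FPKM was also tried and left out, since those constants are no library totals. Exosc3 had at most 82 counts per library, which limits what can be seen of it.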

Other observations

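Pnrc1, Ddx58 and Aco1 on chromosome 4, picked from a list of 14 genes of RNA metabolism, also differed between controls 1 and 2 themselves. Others of that list were closer, such as Virma at 244 and 299 CPM and Tex10 at 105 and 142 CPM. Pnrc1, a nuclear receptor coactivator with a part in decapping, stood at 766, 284 and 310 CPM (controls 1, 2 and 3) and at 371, 386 and 415 CPM (injury 1, 2 and 3). Ddx58, a sensor of viral RNA, stood at 102, 456 and 55.8 CPM (control) and at 89.1, 85.7 and 51.6 CPM (injury). Aco1, which binds iron-responsive elements when it lacks its iron-sulphur cluster, stood at 774, 302 and 193 CPM (control) and at 217, 227 and 205 CPM (injury). The log2 fold changes of Pnrc1, Ddx58 and Aco1 against control 3 were 0.45 (SE 0.17), 0.56 (SE 0.23) and 0.29 (SE 0.16).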
